A study of Mus musculus with 4 samples.

Results

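The Hox cluster genes are the homeodomain transcription factor genes of the HoxA, HoxB, HoxC and HoxD clusters. They were taken as every gene of the deposited count table whose name is Hox followed by a cluster letter (a, b, c or d) and a paralogue number, which gave 39 of 32285 genes: 11 in HoxA, 10 in HoxB, 9 in HoxC and 9 in HoxD. RNA was sequenced from GS cells, which are spermatogonia grown in culture, established from the testes of wild-type mice aged 10 days. Of the 4 libraries, 2 came from C57BL/6 mice (B6) and 2 from mice of strain 129, and the comparison is between these strains. The totals were 20375086 to 25374801 counts per library, so that 20.2 to 24.9 counts were worth 1 CPM (a count scaled to a common library size). The labels do not say whether the libraries within a strain are from different cultures or different animals. Each p-value therefore reflects the spread of these samples, which may be technical. With 2 libraries against 2, an exact permutation test of a single value cannot go below p = 0.333, so tests come from edgeR's quasi-likelihood fit over all genes. Log2 fold changes give 129 relative to B6 and carry a standard error (SE).

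Hox genes lie in a row in each cluster, and their order on the chromosome follows the order in which they are used along the body axis: low paralogue numbers act in the head and neck and high numbers in the trunk, limbs and genital region. Genes with the same paralogue number in different clusters arose by duplication and encode similar proteins. Polycomb complexes keep the clusters silent where a positional code is not in use, and germ cells are not a tissue in which Hox genes are known to set position. Stromal cells of adult tissues, in contrast, are known to keep the Hox code of their site.

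The labelled cell type was checked against markers. Markers of spermatogonia were abundant in every library: Dazl, an RNA-binding protein of germ cells, was at 634 to 1051 CPM. The 19 markers summed to 4281 to 4561 CPM in B6 and to 3225 to 4128 CPM in 129, so both 129 libraries were lower. The 20 fibroblast markers summed to 3420 to 8722 CPM, so genes of stromal cells were also well represented. In such bulk RNA, fewer cells of a type and less RNA per cell cannot be told apart.

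The homeobox, the 180 bases that encode the DNA-binding homeodomain, is the part in which Hox genes resemble each other most. Paralogue groups 10 and 11 are shown because their members stood on different sides in the strain comparison: Hoxc10, Hoxa10, Hoxc11 and Hoxa11 had higher counts in 129, Hoxd10 and Hoxd11 had higher counts in B6. The sequences are the coding strand from the GENCODE M21 transcripts (GRCm38), 5′ to 3′. Capitals mark the bases of Hoxa10 and Hoxd10 that differ from Hoxc10.
Hoxc10: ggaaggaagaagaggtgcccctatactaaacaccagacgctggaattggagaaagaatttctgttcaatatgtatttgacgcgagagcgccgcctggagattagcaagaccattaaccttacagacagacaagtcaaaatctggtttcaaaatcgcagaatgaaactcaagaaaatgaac
Hoxa10: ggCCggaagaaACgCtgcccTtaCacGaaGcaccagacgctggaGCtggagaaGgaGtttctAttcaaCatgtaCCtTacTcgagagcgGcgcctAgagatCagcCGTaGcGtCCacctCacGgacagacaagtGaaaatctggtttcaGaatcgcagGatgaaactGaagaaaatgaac
Hoxd10: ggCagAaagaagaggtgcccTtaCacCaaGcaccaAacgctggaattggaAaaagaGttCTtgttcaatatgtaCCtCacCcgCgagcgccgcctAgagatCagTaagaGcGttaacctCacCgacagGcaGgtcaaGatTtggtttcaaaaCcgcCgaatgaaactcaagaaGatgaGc

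Capitals in the next set mark the bases of Hoxa11 and Hoxd11 that differ from Hoxc11.
Hoxc11: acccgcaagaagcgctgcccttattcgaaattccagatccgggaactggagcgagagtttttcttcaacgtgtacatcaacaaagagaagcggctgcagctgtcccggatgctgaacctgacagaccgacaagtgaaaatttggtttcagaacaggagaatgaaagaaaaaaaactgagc
Hoxa11: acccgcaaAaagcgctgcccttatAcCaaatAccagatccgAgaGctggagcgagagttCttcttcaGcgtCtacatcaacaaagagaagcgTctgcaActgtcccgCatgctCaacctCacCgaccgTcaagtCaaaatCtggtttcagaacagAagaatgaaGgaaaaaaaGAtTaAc
Hoxd11: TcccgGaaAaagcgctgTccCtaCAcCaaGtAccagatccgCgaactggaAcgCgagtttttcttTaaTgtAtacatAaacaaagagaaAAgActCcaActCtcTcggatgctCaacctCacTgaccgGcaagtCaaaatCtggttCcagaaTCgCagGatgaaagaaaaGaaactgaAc

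The Hoxc10 homeobox was 80.56% identical to that of Hoxa10 and 82.78% to that of Hoxd10, and the Hoxc11 homeobox was 86.67% identical to that of Hoxa11 and 79.44% to that of Hoxd11. Over the 42 pairs with the same paralogue number the median identity was 80.56% (range 67.22% to 93.89%), against 60.56% over the 699 other pairs. The longest run of identical bases in any pair of homeoboxes was 52, shorter than the 76-base reads. Of the 39 genes, 22 shared no stretch of 76 bases with any other annotated gene, and 4 shared one with another Hox gene: Hoxc5 with Hoxc10, and Hoxd3 with Hoxd4.

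All 39 Hox genes had at least 1 count in some library, and the clusters differed widely in level. The 39 genes summed to 103 and 243 CPM in the B6 libraries (replicates 1 and 2, the order used throughout) and to 337 and 231 CPM in the 129 libraries. HoxB held 83.3% and 93.3% of this sum in B6 and 61.0% and 73.4% in 129. Levels of different genes were compared per kb of exon. On that scale the 10 highest Hox genes by the B6 mean were the genes of HoxB, led by Hoxb7 (mean 14.8 CPM per kb) and Hoxb8 (13.4 CPM per kb). Hoxb1, the lowest of the 10, was at 0.242 and 1.38 CPM per kb, and in replicate 1 it lay below Hoxc10 (0.652 CPM per kb). In 129 Hoxb8 (15.2 CPM per kb) and Hoxb7 (13.8 CPM per kb) also led, and Hoxc10, at 0.533 CPM per kb in B6, ranked just below Hoxb4 there with 9.18 CPM per kb. The B6 libraries of Hoxb7 lay at 11.05 and 18.5 CPM per kb and those of Hoxb8 at 5.32 and 21.4, so the order of these neighbours did not exceed their spread.

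**Figure D1:**
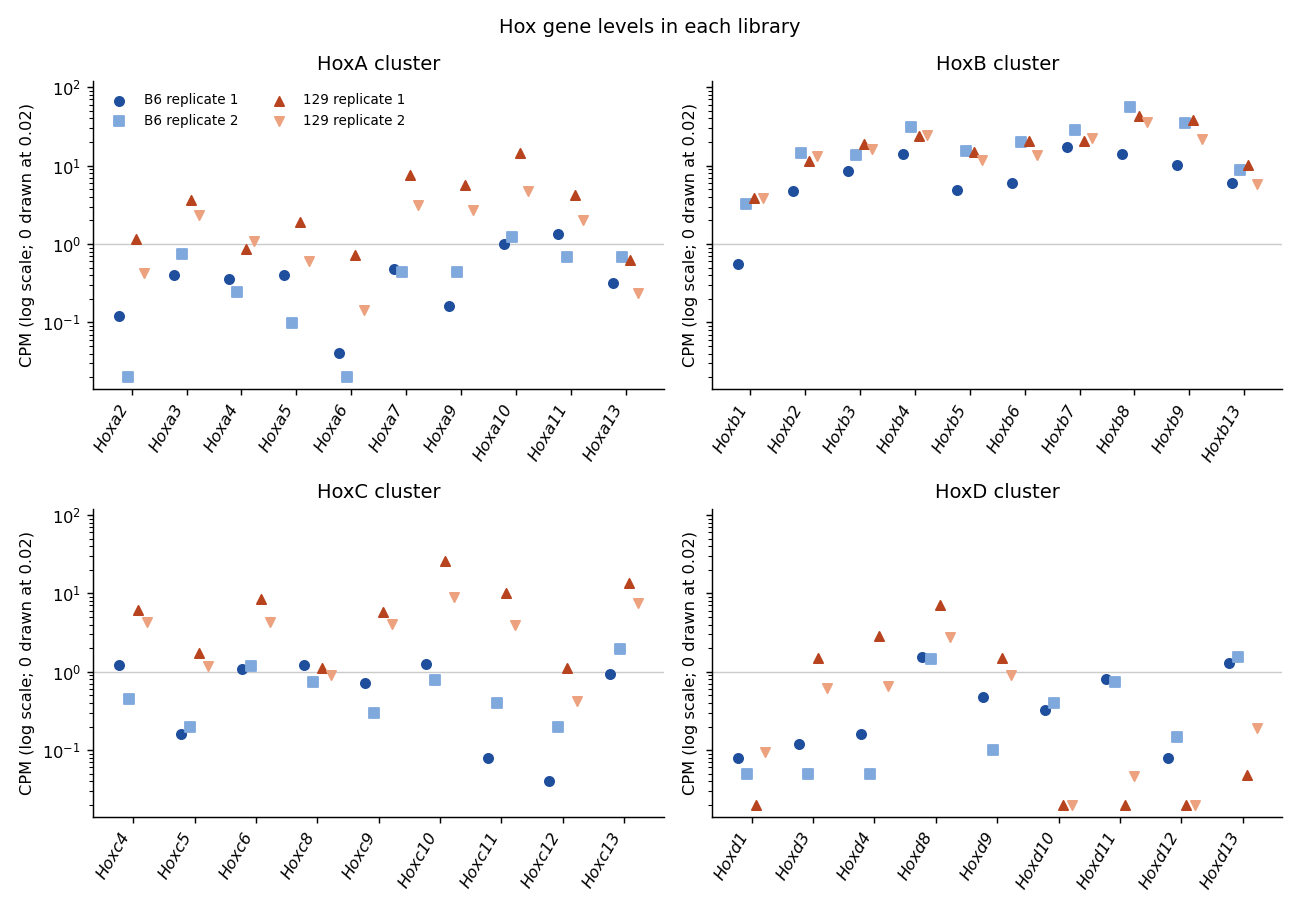
CPM of the Hox genes reported here (log axis, 0 drawn at 0.02) in the 4 libraries, 1 panel per cluster with genes in order of paralogue number; blue symbols are B6 libraries and red symbols 129 libraries. HoxB genes overlap between the strains for 8 of 10 genes, HoxA and HoxC genes are mostly higher in both 129 libraries, and Hoxd10 to Hoxd13 are higher in both B6 libraries. Of all genes tested, 31% were higher in both 129 libraries and 29.2% in both B6 libraries.

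Between the strains, 33 Hox genes had enough counts to be tested. In the quasi-likelihood test of edgeR, adjusted over 16005 genes by the Benjamini-Hochberg method, 3 of them, Hoxc9, Hoxc10 and Hoxc11, were higher in 129 and 0 were lower. Of all genes tested, 1.84% were called higher and 1.02% lower, and 2.86% in either direction. At an unadjusted p under 0.05 (edgeR) 19 Hox genes were higher and 2 lower, where the shares of all genes were 15.9% and 12.2%. DESeq2 called 11 Hox genes higher and 1 lower (all genes, 9.63% and 5.7%), and limma-voom called 0 in either direction (all genes, 0.931% and 0.606%). The log2 fold change was above 0 for 29 of the 33, with a median of 1.68, against 50.9% of all genes tested and a median of 0.015. Both 129 libraries lay above both B6 libraries for 21 of the 33 and below them for 2, and the strains overlapped for 10, where the shares of all genes were 31% above and 29.2% below. Counted over all 39 genes, 24 lay above, 4 below and 11 overlapped. A gene with few counts in 1 strain entered the test only through the other strain, so these counts describe the tested genes and do not stand as support for a direction. The number of calls depended on single libraries: without 129 replicate 2 edgeR called 7 Hox genes, all higher, with 4.92% of all genes called. Without 129 replicate 1, B6 replicate 2 or B6 replicate 1 it called 0 Hox genes, with 0.0782%, 0.00595% and 0% of all genes called.

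**Figure D2:**
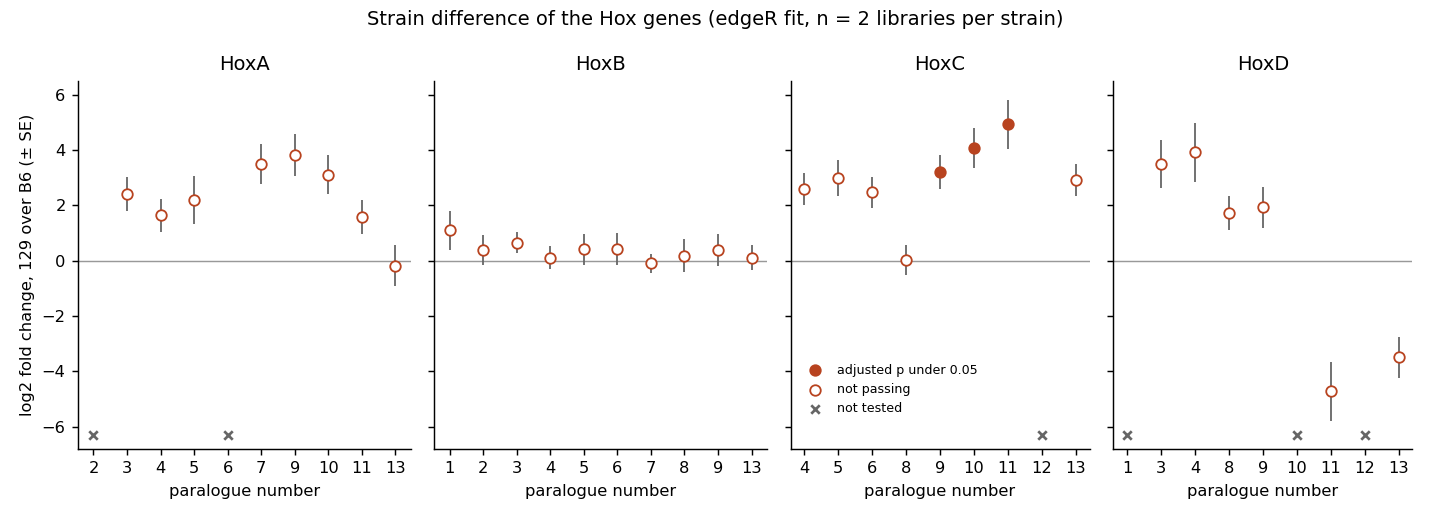
Fitted log2 fold change of 129 over B6 with its SE for the tested Hox genes reported here (edgeR, n = 2 libraries per strain), by paralogue number within each cluster; filled points passed an adjusted p of 0.05 and crosses mark genes with too few counts to test. The 3 filled points are Hoxc9, Hoxc10 and Hoxc11, and HoxB values stay between -0.09 and 1.10.

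The HoxC cluster, on chromosome 15, had the largest ratio of 129 to B6 of the 4 clusters, a difference between clusters that was not tested. Its 9 genes summed to 6.66 and 6.18 CPM in B6 and to 73.5 and 35.9 CPM in 129, which is 6.42 ± 0.339 against 54.7 ± 26.6 CPM (SD, n = 2) and a ratio of 8.52. Without 129 replicate 1 the ratio was 5.59, and without 129 replicate 2 it was 11.5. The other 656 tested genes of chromosome 15 had a median log2 fold change of 0.50, and 80.3% of them were above 0, while the 8 tested HoxC genes had a median of 2.96. HoxC genes act in the neck, trunk and hindlimb: Hoxc9 helps to set the thoracic level, Hoxc10 and Hoxc11 the lumbar level and hindlimb.

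Hoxc10 (chr15:102966796-102971893, GRCm38, plus strand) was at 1.24 and 0.791 CPM in B6 and at 25.96 and 9.10 CPM in 129. Both 129 libraries were above both B6 libraries, and replicate 1 was the higher of the 129 pair. The log2 fold change was 4.07 (SE 0.71, edgeR adjusted p = 0.0440), and 3.13 without 129 replicate 1, where the adjusted p was 0.159. Hoxc11 (chr15:102954427-102957708, plus strand) was at 0.0803 and 0.396 CPM in B6 and at 9.99 and 3.98 CPM in 129. Its B6 libraries held 10 counts in all against 291 in 129, and the strains did not overlap. The log2 fold change was 4.93 (SE 0.89, edgeR adjusted p = 0.0446). It was 6.30 without B6 replicate 2, 4.11 without B6 replicate 1 and 4.13 without 129 replicate 1. Hoxc9 (chr15:102976439-102985099, plus strand) was at 0.722 and 0.297 CPM in B6 and at 5.79 and 4.12 CPM in 129. The strains were again apart, with a log2 fold change of 3.22 (SE 0.61, edgeR adjusted p = 0.0486), and 4.03 without B6 replicate 1. In the older form of the edgeR test Hoxc9 did not pass (adjusted p = 0.0527). Hoxc9 missed the threshold in each fit with a library left out (adjusted p = 0.0568 to 0.235), and Hoxc10 and Hoxc11 passed only where 129 replicate 2 was left out (adjusted p = 0.0174 and 0.0254).

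The other HoxC genes did not pass in edgeR. Hoxc13, a regulator of hair keratin genes at the other end of the cluster from Hoxc4, was at 0.923 and 1.93 CPM in B6 and 13.4 and 7.63 CPM in 129 (edgeR adjusted p = 0.0512, log2 fold change 2.91, SE 0.58). Hoxc6 was at 1.08 and 1.19 CPM in B6 and 8.35 and 4.26 CPM in 129. Hoxc4, the lowest paralogue number of this cluster, was at 1.204 and 0.445 CPM in B6 and 6.08 and 4.31 CPM in 129. For these genes the 129 libraries lay above those of B6, with log2 fold changes of 2.47 for Hoxc6 (SE 0.57) and 2.60 for Hoxc4 (SE 0.59), the latter 3.52 without B6 replicate 1. Without 129 replicate 2 Hoxc13 passed in edgeR. Hoxc13, Hoxc6 and Hoxc4 passed in DESeq2 (adjusted p = 6.1e-05, 0.0022 and 0.0056). Hoxc5, with 8 counts in B6 and 61 in 129, had an edgeR adjusted p of 0.0551, and the annotation gives it an exon stretch of 166 bases in common with Hoxc10. Hoxc12 had 5 counts in B6 and 32 in 129 and was not tested. Hoxc8 stood apart from its neighbours. It was at 1.204 and 0.742 CPM in B6 and 1.11 and 0.900 CPM in 129, so the strains overlapped, and the log2 fold change was 0.02 (SE 0.55).

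HoxA, on chromosome 6, was higher in both 129 libraries as a sum, and 0 of its 9 tested genes passed in edgeR. An unadjusted p under 0.05 (edgeR) was found for 8, all higher, where the share of all genes higher was 15.9%. DESeq2 called 4 higher (all genes, 9.63%). The 11 genes summed to 5.70 and 5.49 CPM in B6 and 44.8 and 20.2 CPM in 129, or 5.59 ± 0.147 against 32.5 ± 17.4 CPM (SD, n = 2) and a ratio of 5.81. Without 129 replicate 1 the ratio was 3.62. The 759 other tested genes of chromosome 6 had a median log2 fold change of 0.30, and the 9 tested HoxA genes had a median of 2.21.

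Within HoxA, the middle of the cluster held the largest fitted differences. Hoxa9, known for its part in blood stem cells and leukaemia, was at 0.161 and 0.445 CPM in B6 and 5.69 and 2.75 CPM in 129 (edgeR adjusted p = 0.0510, log2 fold change 3.84, SE 0.76). Hoxa7 was at 0.482 and 0.445 CPM in B6 and 7.58 and 3.13 CPM in 129 (edgeR adjusted p = 0.0543, log2 fold change 3.51, SE 0.73). Hoxa10, which patterns the reproductive tract in both sexes, was at 1.003 and 1.24 CPM in B6 and 14.6 and 4.79 CPM in 129 (edgeR adjusted p = 0.0596, log2 fold change 3.12, SE 0.72). In each of these genes the lower 129 library was above the higher B6 library, and 129 replicate 1 was above replicate 2. Without 129 replicate 2 all 3 passed in edgeR, and all 3 passed in DESeq2. Without 129 replicate 1 the log2 fold changes were 2.11 for Hoxa10, 2.74 for Hoxa7 and 3.23 for Hoxa9, with 0 of them passing, and without B6 replicate 2 that of Hoxa9 was 4.63.

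Toward the head end of HoxA, Hoxa3, which is needed for the thymus and parathyroid, was at 0.401 and 0.742 CPM in B6 and 3.67 and 2.32 CPM in 129 (edgeR adjusted p = 0.0672, log2 fold change 2.41, SE 0.60). Hoxa5, which acts in lung and neck, was at 0.401 and 0.0989 CPM in B6 and 1.88 and 0.616 CPM in 129 (log2 fold change 2.21, SE 0.86). The strains did not overlap in either gene, and Hoxa5 had the wider spread. Hoxa11, a gene of forearm and uterus, was at 1.32 and 0.693 CPM in B6 and 4.25 and 2.04 CPM in 129 (log2 fold change 1.60, SE 0.62). The antisense gene Hoxa11os, which shares 32.0% of the 76-base stretches of Hoxa11, had a log2 fold change of 1.91 (SE 0.75), so the count of Hoxa11 is uncertain. With 1 library left out the log2 fold change was 1.21 to 3.57 for Hoxa5 and 0.98 to 2.16 for Hoxa11. Of the HoxA genes under a mean of 1 CPM in both strains, Hoxa4 had 14 counts in B6 and 41 in 129. Hoxa2 had 3 counts in B6 and 33 in 129, a ratio of 11.9 (exact 95% counting interval 3.72 to 60.5), and Hoxa6 had 1 against 18, a ratio of 19.4 (3.07 to 809). These intervals cover counting error only. Hoxa13, the last gene of the cluster, which acts in digits and the genital tract, did not share the pattern: it had 22 counts in B6 and 18 in 129, its strains overlapped and its log2 fold change was -0.19 (SE 0.74).

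HoxB, on chromosome 11, was the most abundant cluster and showed no strain difference beyond its spread. Its 10 genes, all of them tested, summed to 85.9 and 227 CPM in B6 and 205 and 170 CPM in 129. The means were 156 ± 99.7 and 188 ± 25.1 CPM (SD, n = 2), a ratio of 1.2003. The ratio turned to 0.827 without B6 replicate 1 and was 2.19 without B6 replicate 2. In edgeR 0 of 10 passed and 0 had an unadjusted p under 0.05, and DESeq2 and limma-voom called 0. The median log2 fold change was 0.39, against -0.03 for the 1293 other tested genes of chromosome 11.

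The larger difference in HoxB was between the libraries of B6. All 10 HoxB genes were higher in B6 replicate 2 than in replicate 1, by a factor of 2.64 in the sum, whereas the HoxA and HoxC sums of replicate 2 were 0.963 and 0.928 times those of replicate 1. Hoxb8 was at 14.0 and 56.5 CPM in B6 and 43.5 and 36.4 CPM in 129. Hoxb9, which with its paralogues shapes the thoracic skeleton, was at 10.2 and 35.2 CPM in B6 and 37.8 and 21.7 CPM in 129. Hoxb6 was at 5.98 and 19.7 CPM in B6 and 20.5 and 13.7 CPM in 129. In these genes B6 replicate 1 was the lowest of the 4 libraries and B6 replicate 2 lay within or above the range of 129. Their log2 fold changes were 0.19 for Hoxb8 (SE 0.59), 0.40 for Hoxb9 (SE 0.59) and 0.43 for Hoxb6 (SE 0.58).

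Hoxb4, known for expanding blood stem cells when overexpressed, was at 13.9 and 31.2 CPM in B6 and 24.1 and 24.6 CPM in 129. Hoxb5 was at 4.86 and 15.4 CPM in B6 and 14.9 and 11.8 CPM in 129. Hoxb2, a hindbrain gene, was at 4.74 and 14.4 CPM in B6 and 11.3 and 13.5 CPM in 129. All 3 overlapped between the strains, again with B6 replicate 1 lowest. Hoxb7 was at 17.1 and 28.6 CPM in B6 and 20.3 and 22.4 CPM in 129 (log2 fold change -0.09, SE 0.35). Hoxb13, a gene of prostate and tail that lies apart from the rest of the cluster, was at 6.02 and 8.85 CPM in B6 and 10.2 and 5.87 CPM in 129. Hoxb7 and Hoxb13 thus varied less between the B6 libraries than Hoxb8 did. In HoxB both 129 libraries lay above both B6 libraries for 2 of 10 genes only, Hoxb1 and Hoxb3, where the share of all genes tested was 31%. Hoxb1, a hindbrain gene, was at 0.562 and 3.22 CPM in B6 and 3.91 and 3.84 CPM in 129 (edgeR adjusted p = 0.363, log2 fold change 1.10, SE 0.72). That log2 fold change was 0.26 without B6 replicate 1 and 2.73 without B6 replicate 2. Hoxb3 was at 8.55 and 13.9 CPM in B6 and 19.0 and 16.2 CPM in 129 (edgeR adjusted p = 0.312, log2 fold change 0.66, SE 0.38). For Hoxb3, 50.4% of the 76-base stretches are shared with the antisense gene Hoxb3os, and no source used here says whether reads were counted by strand. Antisense genes also share 25.2% of the stretches of Hoxb2 and 17.8% of those of Hoxa7. Hoxa3 shares 22.5% with genes on either strand.

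HoxD, on chromosome 2, had the lowest sum of the 4 clusters, and its genes took opposite sides. Hoxd1 to Hoxd9 summed to 2.37 and 1.68 CPM in B6 and 12.98 and 5.07 CPM in 129, a ratio of 4.46 that was 2.50 without 129 replicate 1. Hoxd10 to Hoxd13, a group drawn after these values were seen, summed to 2.49 and 2.82 CPM in B6 and 0.0483 and 0.237 CPM in 129. The 129 mean of this second group was 0.0537 times that of B6, from 119 counts in B6 and 6 in 129, and the factor was 0.0893 without 129 replicate 1 and 0.0182 without 129 replicate 2. The 1241 other tested genes of chromosome 2 had a median log2 fold change of -0.06. In edgeR 0 of the 6 tested HoxD genes passed, with 4 higher and 2 lower at an unadjusted p under 0.05 (all genes, 15.9% and 12.2%). DESeq2 called Hoxd4 higher and Hoxd13 lower (all genes, 9.63% and 5.7%).

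At the low-number end, Hoxd8 was at 1.52 and 1.43 CPM in B6 and 7.14 and 2.80 CPM in 129 (edgeR adjusted p = 0.127, log2 fold change 1.74, SE 0.62). Hoxd4, a gene of the upper neck, was at 0.161 and 0.0495 CPM in B6 and 2.85 and 0.663 CPM in 129 (edgeR adjusted p = 0.0703, log2 fold change 3.92, SE 1.06). Hoxd3, which shapes the first vertebrae, was at 0.120 and 0.0495 CPM in B6 and 1.496 and 0.616 CPM in 129 (edgeR adjusted p = 0.0592, log2 fold change 3.49, SE 0.86). The strains were apart in all 3, and without 129 replicate 2 Hoxd4 passed in edgeR. Hoxd3 and Hoxd4 share stretches of transcript, 59.0% and 43.8% of their 76-base stretches lying in another annotated gene, so their counts are uncertain. Hoxd9 was at 0.482 and 0.0989 CPM in B6 and 1.496 and 0.900 CPM in 129 (log2 fold change 1.94, SE 0.74). With 1 library left out the log2 fold change was 2.53 to 4.98 for Hoxd4, 2.73 to 4.25 for Hoxd3, 0.92 to 2.27 for Hoxd8 and 1.26 to 3.51 for Hoxd9. Hoxd1 had 3 counts in B6 and 2 in 129, too few to place.

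At the high-number end, Hoxd13, which patterns the digits and external genitalia, had 32 and 31 counts in B6 (1.28 and 1.53 CPM) and 1 and 4 counts in 129 (0.0483 and 0.190 CPM). Its B6 libraries nearly coincided and lay above both 129 libraries. The log2 fold change was -3.49 (SE 0.75), which missed the threshold in edgeR (adjusted p = 0.0515) and passed in DESeq2 (adjusted p = 0.0445). With a 129 library left out it was -2.84 (without replicate 1) and -4.70 (without replicate 2). Hoxd11, which with Hoxa11 shapes the forearm, had 35 counts in B6 and 1 in 129, a B6 to 129 ratio of 32.4 (exact 95% counting interval 5.45 to 1317, edgeR adjusted p = 0.0561). Other annotated genes hold 9.41% of the 76-base stretches of Hoxd11, a limit on its count that the interval does not cover. Hoxd10, a gene of the lumbar level, had 16 counts in B6 and 0 in 129. That is 4.94-fold lower in 129 when the 129 libraries together are given a floor of 3 counts. Hoxd12 had 5 counts in B6 and 0 in 129, 1.54-fold lower in 129 by the same floor. The floor takes the B6 count as exact, so the counting error of these few B6 counts is not covered, and Hoxd12 is too low to place. A count of 0 in both 129 libraries allows up to 0.0717 CPM. All 4 genes had both B6 libraries above both 129 libraries (all genes tested, 29.2%), in a group drawn after these values were seen. For Hoxd10 and Hoxd11 this was opposite to their paralogues Hoxc10, Hoxa10, Hoxc11 and Hoxa11, for which both 129 libraries were higher. Evx2, the homeobox gene next to Hoxd13, had 11 counts in B6 and 0 in 129, 3.398-fold lower in 129 by the same floor, which again takes the B6 count as exact.

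**Figure D3:**
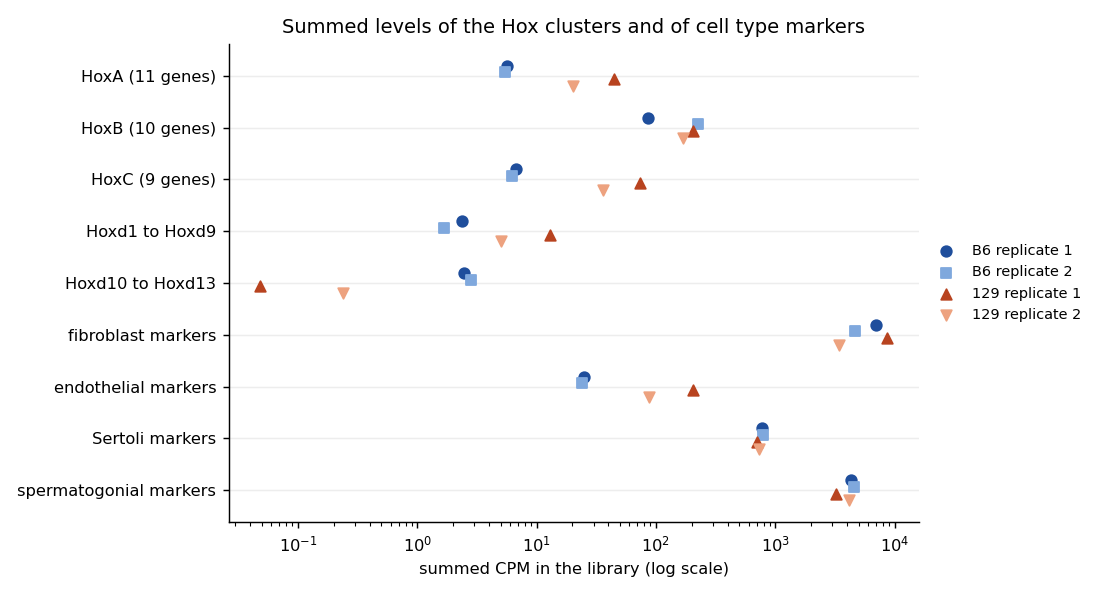
Summed CPM (log axis) of the Hox genes of each cluster, with HoxD in 2 groups, and of 4 lists of cell type markers in the 4 libraries. The HoxA and HoxC sums of 129 are above those of B6 with replicate 1 highest, Hoxd10 to Hoxd13 are higher in B6, and fibroblast sums of the strains overlap.

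Promoter sequence at HoxD is shown because neighbouring genes of this cluster took opposite sides. The windows are the 250 bases before the RefSeq start on the plus strand of GRCm38.p6: chr2:74667975-74668224 for Hoxd13, chr2:74691641-74691890 for Hoxd10, chr2:74704365-74704614 for Hoxd8 and chr2:74721728-74721977 for Hoxd4. No annotated exon overlaps them. Capitals mark CpG dinucleotides, the sites of DNA methylation, and regions dense in CpG are where Polycomb complexes are known to bind.
Hoxd13: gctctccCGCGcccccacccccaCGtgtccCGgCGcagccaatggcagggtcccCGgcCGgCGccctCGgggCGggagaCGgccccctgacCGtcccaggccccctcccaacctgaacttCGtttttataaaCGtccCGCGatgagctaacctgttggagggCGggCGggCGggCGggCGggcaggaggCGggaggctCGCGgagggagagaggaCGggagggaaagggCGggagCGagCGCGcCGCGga
Hoxd10: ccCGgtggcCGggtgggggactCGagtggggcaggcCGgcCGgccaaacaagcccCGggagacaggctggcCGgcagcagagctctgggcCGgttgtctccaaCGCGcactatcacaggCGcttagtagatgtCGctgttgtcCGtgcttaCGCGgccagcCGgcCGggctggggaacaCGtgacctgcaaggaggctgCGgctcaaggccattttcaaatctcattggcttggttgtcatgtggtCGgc
Hoxd8: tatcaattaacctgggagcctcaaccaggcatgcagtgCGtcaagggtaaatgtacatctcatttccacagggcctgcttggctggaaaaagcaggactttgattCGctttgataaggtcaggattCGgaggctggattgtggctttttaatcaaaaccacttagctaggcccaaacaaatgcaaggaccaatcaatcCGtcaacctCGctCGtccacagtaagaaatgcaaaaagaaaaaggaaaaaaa
Hoxd4: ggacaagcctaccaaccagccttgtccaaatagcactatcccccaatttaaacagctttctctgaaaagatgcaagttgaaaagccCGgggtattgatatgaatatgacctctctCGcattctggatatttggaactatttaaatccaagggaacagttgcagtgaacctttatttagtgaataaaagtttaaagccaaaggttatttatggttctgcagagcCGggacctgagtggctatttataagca

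These windows hold 31 CpG for Hoxd13, 20 for Hoxd10, 6 for Hoxd8 and 3 for Hoxd4. No split by strain direction follows from this. Hoxd12, higher in B6, has 10 CpG in its window and Hoxd9, higher in 129, has 13, and Hoxd11 has 2 annotated starts, with 2 CpG before one and 20 before the other. RefSeq windows of 300 bases (250 before and 50 after the start) were matched for 22 of the 39 Hox genes, in 24 windows. Those not matched included Hoxa4, Hoxb2, Hoxb3, Hoxb5, Hoxb6, Hoxb7, Hoxb9, Hoxb13, Hoxc5, Hoxc6, Hoxc8, Hoxc9, Hoxc10, Hoxc11, Hoxc12 and Hoxc13. The matched windows held a median of 14.5 CpG, against 7 over 32851 windows of all genes. The ratio of observed to expected CpG was at least 0.6 in 12 of the 24 (50%), against 35.8% of all windows. The motif TTTATG, the core bound by CDX factors, occurred on either strand in 5 Hox windows (20.8%, against 11.9% of all windows), and TGATTNAT, bound by HOX with PBX proteins, in 2 (8.33%, against 3.22%). The motifs can overlap each other. A match describes the letters only.

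**Figure D4:**
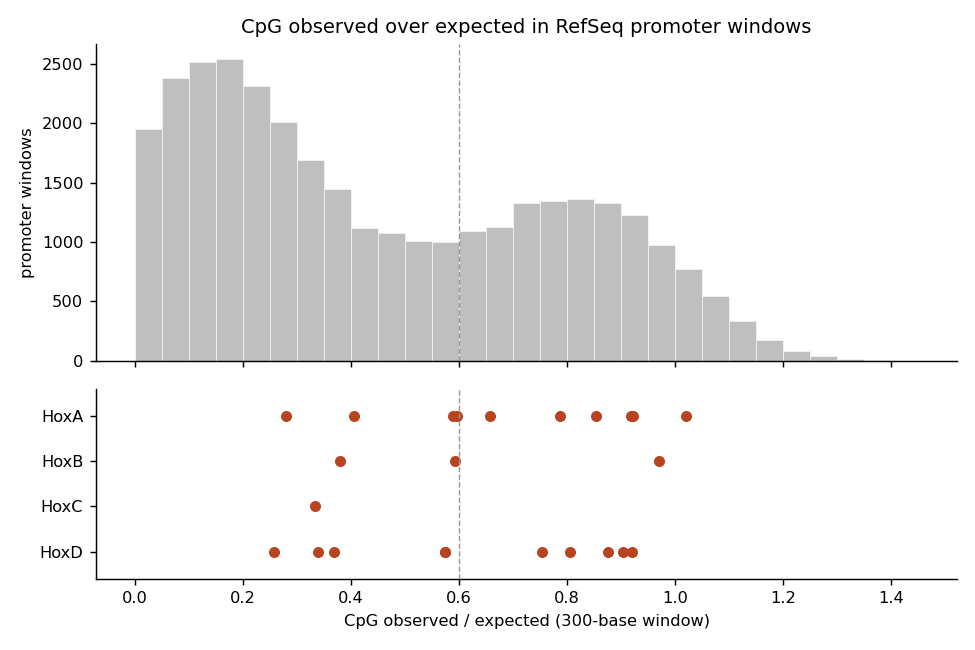
Observed over expected CpG in 300-base RefSeq promoter windows: the histogram counts the windows of all genes, and each point below is a window of a Hox gene, by cluster. The dashed line is at 0.6, which 12 of 24 Hox windows reach.

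Genes that work with the Hox genes are given from lists chosen by known function. The calls in these and the marker lists stand beside the shares of all genes tested. In edgeR these were 1.84% higher and 1.02% lower, and in DESeq2 9.63% and 5.7%. HOX proteins bind DNA together with the TALE homeodomain proteins of the Pbx, Meis and Pknox families: 0 of 9 cofactor genes passed in edgeR, DESeq2 called 3 higher, and the median log2 fold change was 1.10. Pbx2 and Pknox1, the most abundant, were at 0.66 (SE 0.22) and -0.52 (SE 0.23). Of 31 Polycomb genes, which silence the clusters, 0 passed in edgeR, DESeq2 called 4 higher and 1 lower, and the median was 0.0071. The most abundant were Rbbp4 (-0.34, SE 0.18) and Rbbp7 (-0.0075, SE 0.17). Of 18 Trithorax and H3K27 demethylase genes, which oppose Polycomb, 1 was lower, the H3K4 methyltransferase gene Kmt2c (edgeR adjusted p = 0.0493, log2 fold change -1.53, SE 0.29). Both 129 libraries of Kmt2c, at 138 and 218 CPM, were below those of B6, at 612 and 418 CPM.

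Of 21 genes that induce or limit Hox expression in embryos, 15 were tested, and 1 was higher and 1 lower. Gdf11, a ligand that switches on posterior Hox genes in the trunk, rose from 11.3 and 7.32 CPM in B6 to 99.5 and 79.8 CPM in 129 (edgeR adjusted p = 0.0288, log2 fold change 3.26, SE 0.31). Crabp1, which binds retinoic acid, fell from 128 and 113 CPM in B6 to 22.1 and 33.5 CPM in 129 (edgeR adjusted p = 0.0297, log2 fold change -2.12, SE 0.27). The Cdx genes, direct activators of the middle Hox genes, were too low to test, and Cdx4 had 0 counts in all libraries. Among genes known as targets of HOX factors, 1 of 12 tested passed in edgeR, and DESeq2 called 3 higher and 1 lower. Bmp4, a signal of limb and genital mesenchyme, rose from 2.01 and 1.43 CPM to 33.7 and 13.7 CPM (edgeR adjusted p = 0.0370, log2 fold change 3.76, SE 0.60). For Bmp4, as for the HoxC genes, 129 replicate 1 was the higher library.

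Homeobox genes outside the clusters that mark limb, face and trunk mesenchyme were mostly low. Of 34 such genes 21 were tested, and edgeR called 1 higher and 0 lower and DESeq2 8 higher and 2 lower. Of all 34, both 129 libraries were above those of B6 for 15 and below them for 5 (all genes tested, 31% and 29.2%). Alx4 was the edgeR call, with 1.12 and 1.98 CPM in B6 and 19.4 and 12.9 CPM in 129 (edgeR adjusted p = 0.0340, log2 fold change 3.403, SE 0.51). Prrx1, the most abundant of them, was at 37.2 and 26.3 CPM in B6 and 321 and 80.4 CPM in 129 and did not pass (log2 fold change 2.66, SE 0.63). The list median was 1.41. Non-coding genes within the clusters were low, with 11 in the table, 4 tested and 0 passing (DESeq2 called 1 higher). Hoxb3os, the most abundant, was at 3.37 and 4.50 CPM in B6 and 9.27 and 12.3 CPM in 129 (log2 fold change 1.46, SE 0.43). Hotair, transcribed in HoxC between Hoxc11 and Hoxc12, had 3 counts in B6 and 17 in 129, a ratio of 6.11 (exact 95% counting interval 1.77 to 32.6). The non-Hox genes that flank the clusters had 0 calls among 11 tested in edgeR and 0 in DESeq2, with a median of 0.13. Skap2, beside HoxA, was at 0.70 (SE 0.22), Calcoco1, beyond HoxC, at 0.88 (SE 0.27), Skap1, beside HoxB, at -0.22 (SE 0.44), and Mtx2, beside HoxD, at -0.39 (SE 0.19).

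Within 129, markers of other cells moved with some of these sums. In 129, replicate 1 exceeded replicate 2 by a factor of 2.21 in HoxA and 2.05 in HoxC, and 30 of the 39 Hox genes were higher in replicate 1. The summed fibroblast markers differed in the same direction, by a factor of 2.55, with 19 of 20 markers higher in 129 replicate 1. Over the tested fibroblast markers the median log2 ratio was 1.29. The macrophage, endothelial and peritubular muscle sums differed by factors of 2.62, 2.36 and 2.31. The spermatogonial, Sertoli and Leydig sums differed by 0.781, 0.961 and 0.891. In B6 the fibroblast sum of replicate 1 was 1.48 times that of replicate 2, where the factors were 1.04 in HoxA, 1.08 in HoxC and 0.379 in HoxB. Between the strains the fibroblast sums overlapped, at 6945 and 4683 CPM in B6 and 8722 and 3420 CPM in 129, while single markers differed in both directions. Of 19 tested fibroblast markers edgeR called 1 higher and 0 lower and DESeq2 7 higher and 6 lower. Of all 20, both 129 libraries were above both B6 libraries for 7 and below them for 9 (all genes tested, 31% and 29.2%). Among these, Pdgfra (log2 fold change 1.88, SE 0.33), Prrx1 and Dcn (1.52, SE 0.39) had higher values in 129, and Fbn1 (-2.28, SE 0.56), Postn (-2.22, SE 0.51) and Col3a1 (-1.86, SE 0.60) had lower values.

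The 8 endothelial markers summed to 24.8 and 23.9 CPM in B6 and 205 and 86.9 CPM in 129. Of 6 tested, edgeR and DESeq2 each called 2 higher, in edgeR Eng (log2 fold change 3.72, SE 0.56) and Cdh5 (5.15, SE 0.81). Of all 8, both 129 libraries were higher for 4 and lower for 0 (all genes tested, 31% and 29.2%). Those 4 included Kdr (1.81 and 1.73 CPM in B6, 3.96 and 3.70 CPM in 129), while Pecam1, Tek, Vwf and Tie1 overlapped between the strains. The Sertoli markers summed to 780 to 793 CPM in B6 and 702 to 730 CPM in 129, a sum led by Dmrt1 (619 and 584 against 299 and 407 CPM), which spermatogonia also express. Their median log2 fold change was 1.19, and both 129 libraries were higher for 7 of 12 and lower for 1 (all genes tested, 31% and 29.2%). Clu was called higher (log2 fold change 4.37, SE 0.58, edgeR adjusted p = 0.0325). The peritubular muscle markers summed to 23.5 to 81.2 CPM in B6 and 40.3 to 93.1 CPM in 129, with Des called higher (log2 fold change 3.16, SE 0.40, edgeR adjusted p = 0.0297). The macrophage markers summed to 28.4 to 29.5 CPM in B6 and 19.7 to 51.4 CPM in 129, and the Leydig markers to 32.3 to 36.4 and 26.1 to 29.2, with 0 called in edgeR in either list (DESeq2 called 1 macrophage marker higher and 0 Leydig markers). No marker of these lists was at 0 in all libraries.

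Beside the HoxB difference between the B6 libraries, the spermatogonial markers summed to 4281 CPM in replicate 1 and 4561 CPM in replicate 2, and 10 of 19 were higher in replicate 2. Single markers differed more than the sum. Gfra1 and Ret, the GDNF receptor genes of undifferentiated spermatogonia, were at 77.1 and 226 CPM and at 147 and 361 CPM in B6 replicates 1 and 2. Lhx1 (7.06 and 45.4 CPM), Bcl6b (39.0 and 95.4 CPM) and Pou5f1 (34.9 and 78.3 CPM) were also higher in replicate 2. Other markers of the list did not rise: Id4 was at 27.9 and 26.2 CPM and Zbtb16 at 451 and 436 CPM. Lin28a (305 and 252 CPM) and Uchl1 (824 and 755 CPM) were lower in replicate 2. Kit, a marker of differentiating spermatogonia, was at 153 and 53.5 CPM and Dppa3 at 14.4 and 0.742 CPM, higher in replicate 1. Between the strains the 19 spermatogonial markers had a median log2 fold change of -0.49. Among them edgeR called 1 higher and 2 lower, and DESeq2 2 higher and 4 lower. Both 129 libraries lay above both B6 libraries for 4 and below them for 9 (all genes tested, 31% and 29.2%). Within 129 the spermatogonial sum of replicate 1 was 0.781 times that of replicate 2. The part of any of these cells in the Hox values was not tested.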

How the data were processed

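RNA of 4 libraries of cultured spermatogonia was measured as read counts per gene. Stranded mRNA libraries were made from TRIzol-extracted RNA and read as single reads of 76 bp, per the labels' protocols. Per the submitters' processing notes, the tools were HISAT2 2.2.1, HTSeq 0.13.5, cutadapt 3.4, bcl2fastq 2.20 and DESeq2 1.30.1, and the build was mm10. The authors deposited raw counts, which are the unit used here. Neither the annotation release nor the use of strand in the counting is given in the sources used, so genes that overlap may exchange counts. Reads of 129 cells that carry strain variants can be lost against this reference.

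From the deposited counts, a model with strain as its single term was fitted to 16005 genes kept by filterByExpr, with TMM factors (0.982 to 1.04) and robust quasi-likelihood estimation in the current form of edgeR (4.0.16, R 4.3.3). Benjamini-Hochberg adjusted p-values were held to a threshold of 0.05. TMM-scaled library sizes underlie the CPM. A strain at 0 counts was given a floor of 3 counts for both libraries together, and a strain with 1 to 3 counts a ratio with its exact 95% interval. Both cover counting error alone, because reads carried no molecular identifiers. The floor covers only that of the strain at 0 counts and takes the count of the other strain as exact.

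Groups and replicate numbers came from the titles. The B6 titles hold a further tag, F0, that the 129 titles lack. The labels do not give its meaning, and it was not used. Within a strain the libraries were not duplicates (chi-square per gene 58.6 in B6 and 75 in 129). Positions and exon lengths came from GENCODE M21, which holds 32235 of the 32285 gene identifiers and all 39 Hox genes. Homeoboxes were found in its transcripts by translation, and promoter windows came from RefSeq. The alternatives were other scaling factors, no filter, a stricter filter, DESeq2 1.42.0, limma-voom (limma 3.58.1), a replicate block, each library left out, and non-robust estimation. The older form of the edgeR test and cluster sums with a library left out were added after the data were examined, and the form used was chosen to follow an earlier description of the processing after Hox counts under both forms were known. The fits were also run on simulated counts whose spread depended on the mean level alone. That run checks the fitting steps and does not measure how these libraries vary.

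The Hox genes and the lists were chosen with earlier results of these data known. By rule, the 30 Hox genes whose mean reached 1 CPM in a strain are given library by library, except 1 that is not reported here. The 9 others (0 to 24 counts per library) are given by their counts, and Hoxd11, Hoxd10 and Hoxd12 were singled out after their values were seen. From each list the text may name called genes and the 2 most abundant, and flanking genes. Hotair, Cdx4 and several markers (from Pecam1 and Kdr to Gfra1 and Kit) fall outside that rule, their values being known when they were picked.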

Additional observations from a re-analysis of the deposited data

How the results depend on the processing

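Scaling changed how many Hox genes were called: DESeq2 size factors gave 6 (5 higher and 1 lower in 129, with 526 calls over all genes), upper-quartile factors 13 (11 and 2, with 1021) and library totals 13 (11 and 2, with 1052). Without a filter there were 0 Hox calls and 260 in all, and with at least 10 CPM in 2 libraries 0 and 150, with a median log2 fold change of 0.43 over the 8 Hox genes left. DESeq2 called 12 Hox genes (11 and 1, with 2455 in all), limma-voom 0 (246 in all), non-robust estimation 5 (4 and 1, with 575) and the older edgeR form 2, without Hoxc9 (406 in all). With a replicate block edgeR called 11 Hox genes, 9 higher and 2 lower, and 844 in all. Over all genes tested, the deviations of the replicate 1 libraries from their strain means had a correlation of -0.019. A single value over all genes cannot exclude an effect of the shared numbers on some of them.

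With a library left out, edgeR called 0 to 827 genes in all and 0 to 7 Hox genes, 0 to 7 of them higher, and the Hox median was 1.21 to 2.26. The HoxB ratio of 129 to B6 was 0.827 to 2.19 in these fits. Its direction turned without B6 replicate 1, as did the log2 fold changes of Hoxb2 (-0.22, up to 1.34 in the other such fits), Hoxb4 (-0.37, up to 0.76), Hoxb5 (-0.21, up to 1.41), Hoxb6 (-0.21, up to 1.47), Hoxb8 (-0.50, up to 1.47), Hoxb9 (-0.25, up to 1.495) and Hoxb13 (-0.15, up to 0.46). Those of Hoxb7 (0.28, down to -0.43) and Hoxc8 (-0.30, up to 0.43) turned without B6 replicate 2, and those of Hoxb9 (-0.052), Hoxb13 (-0.33) and Hoxc8 (-0.13) without 129 replicate 1. The cause was not tested. HoxA, HoxC and HoxD ratios kept their direction in all scalings and with each library left out. The HoxD sum, with a ratio of 1.96, joins groups of opposite direction. Its 129 replicate 2 lay near B6, at 5.31 CPM against a B6 mean of 4.68 CPM. Depth limits what can be said of the 6 untested genes: 20.2 to 24.9 counts are worth 1 CPM.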
